A study of Mus musculus with 35 samples.

Results

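Immediate early genes are transcribed within minutes of a stimulus, without new protein synthesis, and their messages are short-lived. The 10 genes followed here were Fos, Fosb, Jun, Junb, Egr1, Ier2, Ier3, Atf3, Zfp36 and Dusp1, picked by name out of 31053 genes counted, and each was found in all 35 libraries by its Ensembl identifier. Fos, Fosb, Jun, Junb and Atf3 encode transcription factors of the AP-1 and ATF families, and Egr1 encodes a zinc finger transcription factor. Zfp36 encodes an RNA-binding protein that speeds the decay of other messages, and Dusp1 encodes a phosphatase that switches off MAP kinases. Serum response factor at CArG boxes and CREB at cAMP response elements are the textbook regulators of this class. In tissue they are known as markers of recent kinase signalling and are often read together as a single response.

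The libraries were made from whole kidneys of C57BL/6 mice at postnatal day 2 (p2), a precystic stage, and covered 3 crosses. Ksp-cre, driven by the Cdh16 promoter, removed floxed alleles in a population of kidney cells that includes collecting duct, distal tubule and thick ascending limb. Controls are described as Flcn flox/flox mice, and whether those of the Flcn/Tfe3 cross carried intact Tfe3 is not given in the sources used here. The Flcn cross held 5 controls and 5 Flcn KO (Ksp-cre+ with Flcn flox/flox). The Flcn/Tfeb cross held 3 controls and 4 DKO (Ksp-cre+ with Flcn flox/flox and Tfeb flox/flox), and the Flcn/Tfe3 cross held 8 controls and 10 DKO (Tfe3-/- with Flcn flox/flox and Ksp-cre+), whose Tfe3 loss was in the whole body. The first 2 crosses, 17 libraries, were deposited as a separate file for each library and are called table A below for short. No label says whether these 2 crosses were processed together. The Flcn/Tfe3 cross was deposited as 2 tables, B with 3 controls and 6 DKO and C with 5 controls and 4 DKO. In whole kidneys, fewer cells of a type and less RNA per cell cannot be told apart. Library totals ran from 1652649 to 4239356 counts, and mitochondrial genes took 1.79% to 11.9% of them. Reads of this assay fall at the 3′ end of a message and check a deletion only where it removes that end. Flcn stood at 15.1 ± 3.25 CPM (SD, n = 5) in Flcn KO against 13.9 ± 2.26 (SD, n = 5) in controls, Tfe3 at 18.5 ± 3.8 CPM (SD, n = 10) in Flcn/Tfe3 DKO against 19.2 ± 3.11 (SD, n = 8) in its controls, and Tfeb at 7.47 ± 0.68 CPM (SD, n = 4) in Flcn/Tfeb DKO against 12 ± 6.67 (SD, n = 3). Tfe3 was higher in the controls of table A, at 32 ± 5.19 CPM (SD, n = 5) in the Flcn cross and 36.5 ± 6.8 CPM (SD, n = 3) in the Flcn/Tfeb cross, with no overlap with the Flcn/Tfe3 controls (15.3 to 24.8 CPM), and genotype and table cannot be told apart there. Umod, which marks the thick ascending limb and was in the lists of cell type markers, was the sole gene of those lists that was called. Its log2 fold change was 1 (SE 0.12, adjusted p = 0.000396) in the Flcn cross and 0.71 (SE 0.10, adjusted p = 0.000217) in the Flcn/Tfe3 cross.

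Promoters of the genes that the results turn on are shown first, with the letters that the regulators of this class are known to bind. RefSeq windows (build GRCm38.p6) matched 8 of the 10 genes, all but Egr1 and Ier2, and the 250 bases before the start site were searched on both strands. Capitals mark the CArG box, the cAMP response element TGACGTCA and its shorter part TGACG (which overlap), the AP-1 site TGANTCA, the EGR site GCGNGGGCG and the E-box CACGTG, which is the core of the element bound by TFEB and TFE3. A site on the other strand appears as its complement. Windows lay at chr12:85473640-85473889 for Fos on the plus strand, chr8:84978749-84978998 for Junb on the minus strand, chr1:191183334-191183583 for Atf3 on the minus strand, chr7:28379229-28379478 for Zfp36 on the minus strand, chr17:26508473-26508722 for Dusp1 on the minus strand and chr17:35821463-35821712 for Ier3 on the plus strand.
Fos promoter: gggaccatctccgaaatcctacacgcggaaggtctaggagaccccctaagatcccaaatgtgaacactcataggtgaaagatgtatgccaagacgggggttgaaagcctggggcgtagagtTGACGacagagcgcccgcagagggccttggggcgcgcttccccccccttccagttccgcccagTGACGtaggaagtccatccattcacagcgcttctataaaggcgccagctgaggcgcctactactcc
Junb promoter: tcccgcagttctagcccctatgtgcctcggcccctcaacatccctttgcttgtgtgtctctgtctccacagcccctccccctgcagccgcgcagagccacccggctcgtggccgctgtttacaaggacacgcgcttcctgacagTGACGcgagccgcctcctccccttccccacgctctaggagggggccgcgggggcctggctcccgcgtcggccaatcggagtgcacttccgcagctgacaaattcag
Atf3 promoter: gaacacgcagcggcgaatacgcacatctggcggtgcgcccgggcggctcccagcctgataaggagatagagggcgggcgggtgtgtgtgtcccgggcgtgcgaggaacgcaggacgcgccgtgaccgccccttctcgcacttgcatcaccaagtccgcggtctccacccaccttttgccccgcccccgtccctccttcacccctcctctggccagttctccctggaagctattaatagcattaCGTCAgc
Zfp36 promoter: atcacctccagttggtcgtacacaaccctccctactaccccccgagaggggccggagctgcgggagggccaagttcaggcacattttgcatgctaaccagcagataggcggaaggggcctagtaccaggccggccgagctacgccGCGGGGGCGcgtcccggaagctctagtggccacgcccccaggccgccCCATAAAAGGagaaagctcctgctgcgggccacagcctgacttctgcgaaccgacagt
Dusp1 promoter: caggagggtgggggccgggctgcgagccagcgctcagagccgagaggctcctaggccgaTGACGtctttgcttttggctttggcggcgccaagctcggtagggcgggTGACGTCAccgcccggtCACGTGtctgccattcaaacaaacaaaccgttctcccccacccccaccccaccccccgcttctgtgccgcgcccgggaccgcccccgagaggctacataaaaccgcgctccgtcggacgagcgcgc
Ier3 promoter: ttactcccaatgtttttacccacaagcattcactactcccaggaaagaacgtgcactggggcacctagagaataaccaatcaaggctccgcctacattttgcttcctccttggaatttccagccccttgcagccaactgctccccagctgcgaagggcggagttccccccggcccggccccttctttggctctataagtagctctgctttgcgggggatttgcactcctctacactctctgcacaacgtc

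The 8 windows did not share a site. TGACG was found in 5 of them (Fos, Fosb, Junb, Atf3 and Dusp1) and in 17.8% of 32851 promoter windows of the same length. Junb and Atf3 each held 1 TGACG, at 106 and 7 bases before the start. Zfp36 held the sole CArG box among these windows, at 58 bases before the start, and an EGR site at 105. The CArG box was present in 1.47% of all windows and the EGR site in 4.70%. Dusp1 was the sole gene with a full TGACGTCA (1.55% of all windows) and the sole gene with CACGTG (6.02% of all windows). TGANTCA was in none of the 8 windows and in 6.75% of all windows. No listed site was found in the windows of Ier3 or Jun.

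Levels at p2 differed widely between the genes. Reads of this assay come from the 3′ end of a message, 1 per fragment, so a longer message does not yield more reads, and CPM, a gene's count as a share of the TMM-scaled library size, was compared between genes on that basis. Jun had the highest mean level at 74.6 CPM over the 35 libraries, followed by Ier3 at 49.5 CPM and Egr1 at 38.4 CPM. These 3 genes made up 34.6%, 22.3% and 18% of all reads on the 10 genes. Ier2 at 15.6 CPM, Dusp1 at 12.9 CPM, Junb at 11.8 CPM and Zfp36 at 7.17 CPM were in the middle, with ranges that overlapped each other. The order below Jun was not the same in every group: Egr1 was at 39.7 CPM and Ier3 at 39.3 CPM in Flcn/Tfe3 DKO, and Ier2, at 9.12 CPM in Flcn controls and 7.18 CPM in Flcn KO, lay under Junb and Dusp1 there. Atf3 at 2.67 CPM, Fos at 1.94 CPM and Fosb at 0.377 CPM were near the floor, which is 3 counts of a library. Fos had 3 counts or fewer in 15 of 35 libraries, and Fosb in 32 of 35 with 0 counts in 18. Fos, the best known gene of the class, was barely detected at p2, whereas its partner Jun was above the median gene (18% of 13728 genes tested had a higher mean).

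Counts of Fos showed 1 library apart from the others. Fos counts were 0, 2, 3, 2 and 9 in Flcn controls and 1, 3, 4, 5 and 5 in Flcn KO. They were 4, 2 and 2 in Flcn/Tfeb controls and 2, 5, 6 and 2 in Flcn/Tfeb DKO. In the Flcn/Tfe3 cross, control replicate 1 had 47 counts (11.2 CPM) and the other 7 controls had 1 to 5 counts, while the 10 DKO had 3 to 13. That library also had 7 Fosb counts, against 0 or 1 in the other 7 controls. Its levels of Ier3 (83.6 CPM), Egr1 (59.2 CPM), Zfp36 (11.5 CPM) and Atf3 (3.34 CPM) were each the highest among the 8 controls. Its Jun, Junb, Ier2 and Dusp1 levels lay inside the range of the other controls. Summed CPM of 3 liver markers (Alb, Apoa2 and Ttr) was 2890 in it and 288 to 1840 in the other 7 controls. It also had the highest sums of the 8 controls for stroma (2400, others 1230 to 1860), adrenal (137, others 0.875 to 121), nephron progenitor (88.3, others 18.1 to 76.8) and myeloid markers (151, others 78.8 to 144), and the lowest for proximal tubule (1190, others 1250 to 1600). The part of any of these in the Fos value was not tested.

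**Figure D1:**
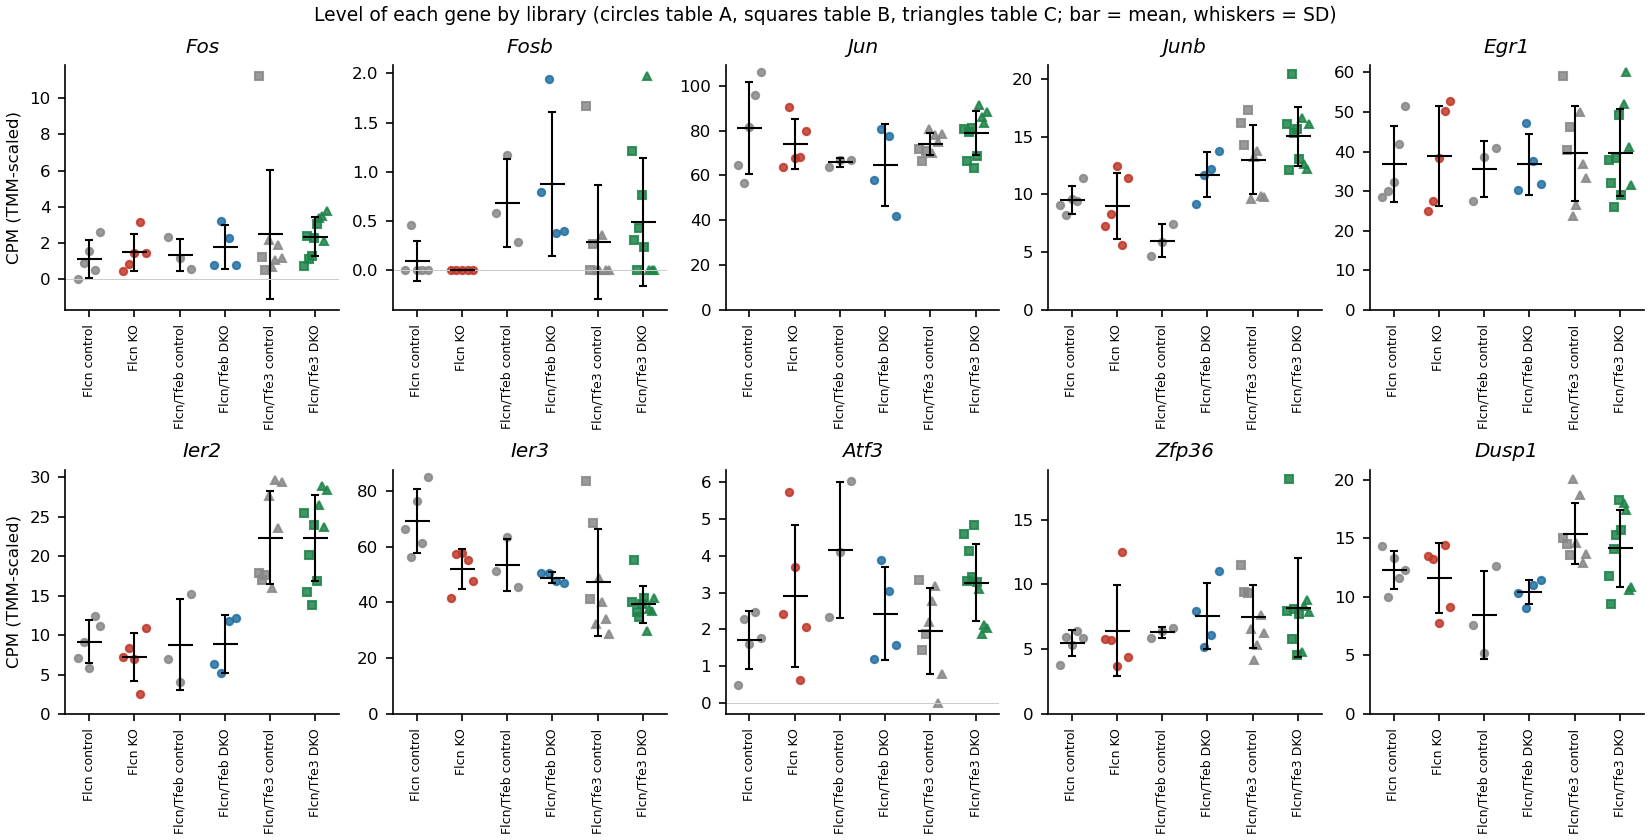
Level of each of the 10 genes (vertical axis, CPM on TMM-scaled sizes, starting at or below 0) in every library of the 6 groups (horizontal axis). Symbols are libraries of table A (circles), B (squares) and C (triangles), bars are means and whiskers SD; 1 control of the Flcn/Tfe3 cross stands at 11.2 CPM for Fos, and Ier2 is higher in tables B and C than in most of table A.

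Loss of Flcn, alone or with Tfeb or Tfe3, was next compared with the controls of each cross to ask whether the genes changed. None of them was called at an adjusted p under 0.05 by edgeR's quasi-likelihood test in any cross. In the Flcn cross 7 of 10 genes passed the filter on low counts (Fos, Fosb and Atf3 did not) and 0 were called, beside 0.52% of 11932 genes tested. In the Flcn/Tfeb cross the same 7 were tested and 0 were called, beside 0% of 12469 genes. In the Flcn/Tfe3 cross 8 were tested (Atf3 as well) and 0 were called, beside 0.385% of 12456 genes. DESeq2 also called 0 of the genes in each cross. Standard errors were widest in the Flcn/Tfeb cross, at 0.17 to 0.47 on the log2 scale, against 0.14 to 0.33 in the Flcn cross and 0.08 to 0.35 in the Flcn/Tfe3 cross, so a change of a given size was harder to call there. At an unadjusted p under 0.05 there was 1 gene in each cross, where all genes tested gave 1082, 632 and 891. The median log2 fold change of the genes was -0.10, 0.02 and 0.07 in the Flcn cross, the Flcn/Tfeb cross and the Flcn/Tfe3 cross, and that of all genes tested was -0.01, -0.02 and 0.01. A value above 0 was found for 2 of 7, 4 of 7 and 5 of 8 of them, and for 48.5%, 47.9% and 51.9% of all genes tested.

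**Figure D2:**
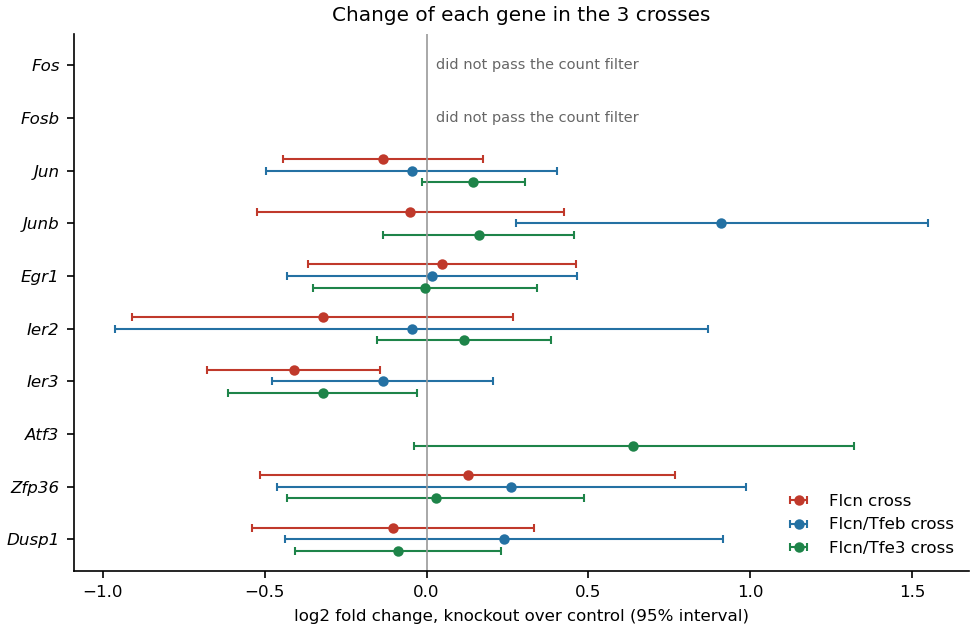
Log2 fold change of knockout over control (horizontal axis) with its 95% interval for each gene (vertical axis) in the Flcn (red), Flcn/Tfeb (blue) and Flcn/Tfe3 (green) crosses. Intervals that leave out 0 are those of Ier3 in the Flcn and Flcn/Tfe3 crosses and Junb in the Flcn/Tfeb cross, none of which passed the adjusted threshold; Atf3 passed the count filter in the Flcn/Tfe3 cross only.

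Ier3, a stress-induced regulator of cell survival, had the smallest p of the genes in the Flcn cross. Its level was 66.2, 56.4, 76.5, 61.4 and 84.8 CPM in the 5 controls and 41.5, 57.4, 57.8, 55.2 and 47.8 CPM in the 5 Flcn KO. Of the KO libraries 3 lay below every control, and the other 2 lay just above the lowest control. The log2 fold change was -0.41 (SE 0.14, p = 0.00755, adjusted p = 0.321). In the Flcn/Tfeb cross Ier3 stood at 51.4, 63.6 and 45.4 CPM in controls and at 50.4, 50.5, 47.6 and 46.8 CPM in DKO, within the range of the controls, with a log2 fold change of -0.14 (SE 0.17, adjusted p = 0.849). That value was 0.01 without control replicate 2, -0.24 without control replicate 3 and -0.33 with the mitochondrial share as a term. In the Flcn/Tfe3 cross it ran from 28.6 through a median of 40.7 to 83.6 CPM in 8 controls and from 29.6 through 38.6 to 55.2 CPM in 10 DKO, with a log2 fold change of -0.32 (SE 0.15, p = 0.0417, adjusted p = 0.659). That value came from table B, where it was -0.64 (adjusted p = 0.752), while in table C it was -0.02 (adjusted p = 0.951). Control replicate 1, which had the high Fos count, also held the highest Ier3 level of table B, and without it the value of the cross was -0.17.

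Junb, an AP-1 subunit, was the sole gene of the 10 whose groups did not overlap in any cross. In the Flcn/Tfeb cross it stood at 4.67, 5.84 and 7.47 CPM in the 3 controls and at 9.13, 11.7, 12.2 and 13.8 CPM in the 4 DKO. Every DKO was above every control. In this cross 5.65% of all genes tested had groups that did not overlap, in either direction. The log2 fold change was 0.91 (SE 0.32, p = 0.017, adjusted p = 0.798). Control replicate 3 stood apart from control replicates 1 and 2 in mitochondrial share (4.47% against 9.16% and 10.7%, with 10.4% to 11.9% in the DKO) and in summed CPM of markers of collecting duct (959 against 545 and 447), endothelium (425 against 283 and 277) and podocytes (248 against 160 and 148). Without it the Junb value was 1.14 (adjusted p = 0.932), and with the mitochondrial share as a term it was 1.1 (adjusted p = 0.65). Skeletal muscle markers had a median log2 fold change of 2.64 in this cross (0 of 3 called, summed CPM 4.6 to 46.7 in controls and 14.9 to 236 in DKO) and liver markers of 1.62 (0 of 3 called, 395 to 985 and 541 to 2620). Their part in the Junb value was not tested. Controls of the Flcn cross had Junb at 8.18 to 11.4 CPM, all above the Flcn/Tfeb controls, and the share of all genes apart in this way was not counted. Flcn KO were at 5.64 to 12.5 CPM, on both sides of the Flcn controls. Cross and processing cannot be told apart between the controls of the 2 crosses. The log2 fold change of Junb was -0.05 (SE 0.24) in the Flcn cross and 0.16 (SE 0.15) in the Flcn/Tfe3 cross. Groups of no gene among the 10 were apart in the Flcn cross (2.39% of all genes tested were). None were apart in both tables of the Flcn/Tfe3 cross at once (0.305% of all genes tested were). In table C alone Jun was at 70.2 to 80.9 CPM in 5 controls and 83.6 to 91.5 CPM in 4 DKO, without overlap. In table B Jun was at 66.6 to 71.9 CPM in controls and 63.2 to 81.4 CPM in DKO, with overlap. The share of all genes apart in table C alone was not counted, so the gap is not read as a trait of Jun. Calls over all genes were also many more in table C alone than in table B alone, as the last section gives. Junb, at chr8:84974484-84978718, shares its locus with Prdx2, an antioxidant gene on the opposite strand with 61110 counts over the 35 libraries against 1305 for Junb. Whether counting used the strand is not given in the sources used here. Across libraries Junb and Prdx2 had a Pearson r of -0.23 (permutation p = 0.218), and -0.39, 0.24 and -0.48 within tables A, B and C. The same limit holds for Dusp1, which overlaps Ergic1 on the opposite strand, a gene with more counts than Dusp1, with r = 0.18 over all libraries (permutation p = 0.553) and 0.49, -0.31 and -0.21 within tables A, B and C. It holds for Jun too, which overlaps Junos (216 counts), with r = -0.16 (permutation p = 0.386). Within tables A, B and C that r was -0.0077, -0.555 and -0.905.

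Jun, Egr1, Zfp36 and Dusp1 gave log2 fold changes between -0.14 and 0.26 in all 3 crosses, fitted with all libraries of each cross. The Jun value of the Flcn cross, -0.14, ran from -0.24 to -0.02 without each library in turn. For Jun the interval was narrowest in the Flcn/Tfe3 cross, at 0.15 (95% interval -0.01 to 0.31). Taking the single KO first, then the Flcn/Tfeb DKO and the Flcn/Tfe3 DKO, Egr1 had 0.05, 0.02 and -0.01, with intervals that reached 0.47 at most and -0.43 at least. Within the Flcn/Tfe3 cross Egr1 was at -0.45 in table B and 0.40 in table C. Zfp36 had 0.13, 0.26 and 0.03, and Dusp1 -0.10, 0.24 and -0.09. The Zfp36 value of the Flcn cross, 0.13, was -0.18 without Flcn KO replicate 4, its highest Zfp36 library. The Zfp36 value of the Flcn/Tfeb cross, 0.26, was 0.03 without DKO replicate 4 and 0.0068 with a replicate block. The Dusp1 value of the Flcn/Tfeb cross was 0.01 without control replicate 2, 0.70 without control replicate 3 and 0.95 (p = 0.0544, adjusted p = 0.657) with the mitochondrial share as a term. Ier2, a short single-exon gene, had -0.32, -0.05 and 0.12, and in the Flcn/Tfeb cross its interval ran from -0.96 to 0.87, so that a change of that size could not be told from none. That value was 0.70 without control replicate 3, -0.35 without control replicate 2 and 0.97 (adjusted p = 0.716) with the mitochondrial share as a term. Its value of -0.32 in the Flcn cross was -0.16 without Flcn KO replicate 4, -0.18 without control replicate 4, -0.52 without Flcn KO replicate 5 and -0.17 with the mitochondrial share as a term. Atf3, the stress-induced member of the ATF family, was tested in the Flcn/Tfe3 cross alone. It ran from 0 to 14 counts in 8 controls and from 7 to 19 in 10 DKO, with a log2 fold change of 0.64 (SE 0.35, p = 0.077, adjusted p = 0.727). Atf3 passed the count filter there mainly through DKO libraries, where it was higher, so this value is not read as a change. Atf3 counts were 1, 5, 3, 10 and 6 in Flcn controls, 5, 20, 10, 1 and 7 in Flcn KO, 4, 7 and 21 in Flcn/Tfeb controls and 3, 6, 8 and 4 in Flcn/Tfeb DKO, with overlap in each cross. Fosb was at 0 in all 5 Flcn KO and in 4 of 5 Flcn controls, both at the floor.

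An interaction term then compared the crosses with each other, with the effect of each measured from its own controls. None of 8 genes tested was called for the Flcn/Tfeb effect less the Flcn effect, beside 0.0153% of 13049 genes. None of 9 was called for the Flcn/Tfe3 effect less the Flcn effect, beside 0% of 13209 genes, nor for the Flcn/Tfe3 effect less the Flcn/Tfeb effect, beside 0.022% of 13637 genes. DESeq2 called 0 of them as well. Standard errors of the 3 differences, in that order, were 0.22 to 0.77, 0.17 to 0.95 and 0.19 to 1.11 on the log2 scale. A small difference could therefore not be told from none. At an unadjusted p under 0.05 there were 2, 0 and 2 genes, Junb and Atf3 each time, where 5.95%, 7.4% and 12.2% of all genes tested had such a p. Junb had a difference of 0.96 (SE 0.38, adjusted p = 0.824) for Flcn/Tfeb less Flcn and of -0.76 (SE 0.31, adjusted p = 0.341) for Flcn/Tfe3 less Flcn/Tfeb. Atf3 had -1.66 (SE 0.77, adjusted p = 0.824) and 1.49 (SE 0.69, adjusted p = 0.389). Both pairs of differences share the Flcn/Tfeb libraries and rest on its 3 controls, where Atf3 was at 2.33, 4.09 and 6.04 CPM. Only the latter 2 lay above every control of the other crosses, which ran from 0 to 3.34 CPM, and 21 of the 32 Atf3 counts in these controls were in replicate 3. Without that library Atf3 did not pass the filter for Flcn/Tfeb less Flcn and had 1.08 (p = 0.184, adjusted p = 1) for Flcn/Tfe3 less Flcn/Tfeb.

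Other genes of the same class and its upstream kinases gave no calls either. Of 48 further immediate early genes listed, 46 were counted and 33, 35 and 38 were tested in the 3 crosses in that order, with 0 called in each. Their median log2 fold change was -0.09, -0.04 and 0.02. The smallest p was that of Sgk1, a serum- and glucocorticoid-induced kinase of the distal nephron, at -0.41 (SE 0.12, p = 0.00166, adjusted p = 0.197) in the Flcn/Tfe3 cross. All 21 upstream kinases and factors tested, out of 23 listed, and 12 heat shock genes gave 0 calls as well. The heat shock gene Hspa1b was at -1.04 (SE 0.25, adjusted p = 0.0772) in the Flcn cross, -0.98 (SE 0.53, adjusted p = 0.798) in the Flcn/Tfeb cross and 0.25 (SE 0.17, adjusted p = 0.822) in the Flcn/Tfe3 cross.

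Spread between replicates was not uniformly high. After removal of the mean of each group and table, the SD of log2 CPM was 0.77 for Fos, 0.65 for Atf3, 0.56 for Fosb, 0.49 for Ier2 and 0.44 for Zfp36. It was 0.37 for Egr1, 0.32 for Dusp1, 0.27 for Junb, 0.26 for Ier3 and 0.23 for Jun, where the median over all genes tested was 0.34. Fos, Atf3 and Fosb also had the lowest counts. Among the genes with more counts, Jun and Ier3 varied less than most, since 80.8% and 73.9% of all genes tested had a larger SD.

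Covariation between libraries was then examined over the 45 pairs of genes. Positive and negative pairs were mixed. The median Pearson r over the 45 pairs was 0.10, beside a median of 0.00 over 94222128 pairs of all genes tested. On library totals without TMM factors the median over the 45 pairs was 0.24. Of the 45 pairs, 15 were negative and 10 were above 0.3, that is 33.3% and 22.2% beside 50.0% and 13.4% of all pairs. Within tables the median r was 0.05 in table A, 0.18 in table B and 0.09 in table C. With the group and table means left in, it was 0.11. No pair passed an adjusted p under 0.05 (100000 permutations within group and table, two-sided, adjusted over 45 pairs), and 8 pairs had an unadjusted p under 0.05. The share of all pairs of genes with such a p was not counted, so the 8 are not read as a trait of these genes. Fos and Jun, the partners of the classic AP-1 dimer, had r = 0.27 (rho = 0.25, permutation p = 0.171 and 0.209). Within tables A, B and C that r was 0.47, -0.27 and 0.66, so the sign differed between tables. The median r was 0.10 over the 7 genes with a mean of at least 10 counts as well.

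**Figure D3:**
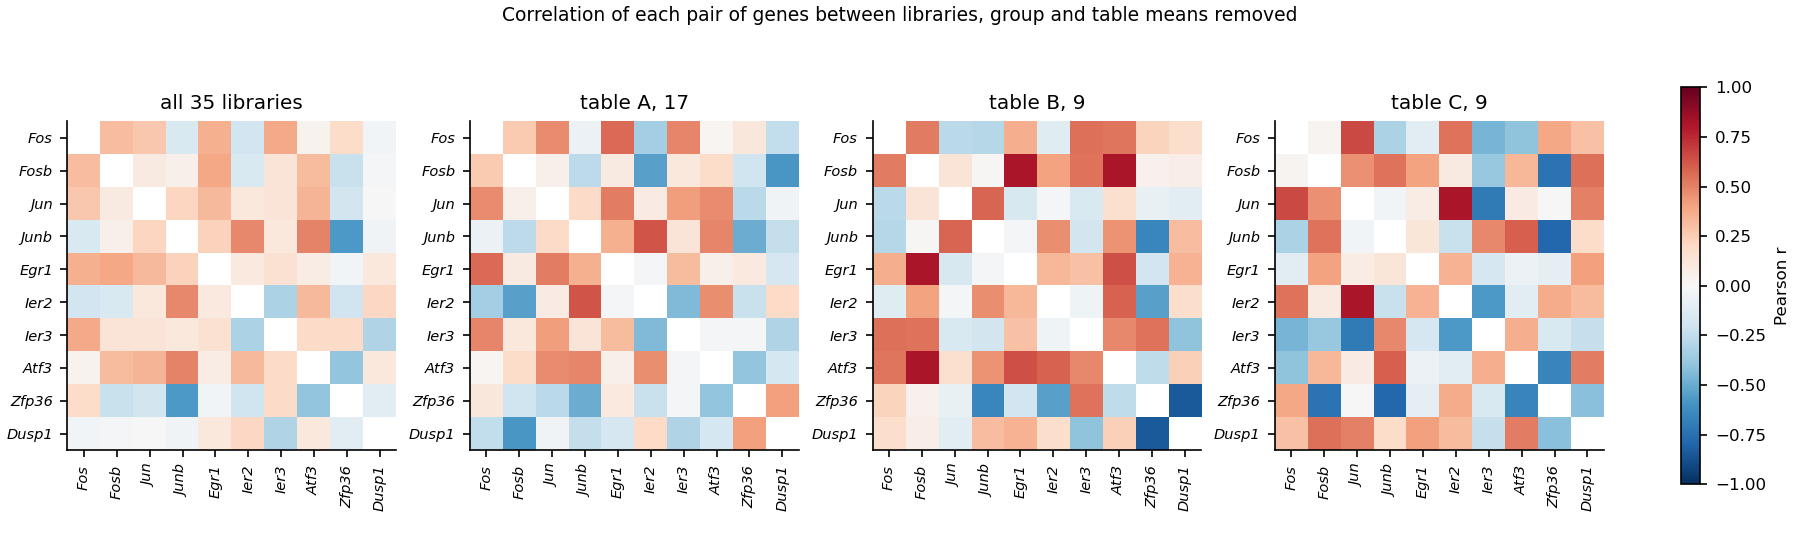
Pearson r of each pair of genes (both axes) over all 35 libraries and within tables A, B and C, after the mean of each group and table was removed; red is positive, blue negative and the diagonal is blank. Blue and red cells are mixed in every panel, and Junb with Zfp36 is blue in all 4.

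Junb and Zfp36 gave the strongest relation, and it was inverse. Pearson r was -0.57 (permutation p = 0.00319, adjusted p = 0.144) and Spearman rho -0.48 (permutation p = 0.00839, adjusted p = 0.272) over 35 libraries. Within tables A, B and C r was -0.50, -0.65 and -0.79. Leaving out the 2 libraries farthest from the median of Junb gave -0.41, and leaving out each library in turn gave -0.67 to -0.45. On library totals without TMM factors r was -0.38. Junb and Atf3 had the highest positive r, 0.50 (rho = 0.47, permutation p = 0.0121 for both, adjusted p = 0.191 and 0.272), with 0.49, 0.45 and 0.60 in tables A, B and C and 0.38 without the 2 farthest libraries. Atf3 and Zfp36 were inverse as well, at -0.39 (rho = -0.29, permutation p = 0.0237 and 0.123, adjusted p = 0.191 and 0.412), with -0.39, -0.26 and -0.66 within tables and -0.20 without the 2 farthest libraries. High Zfp36 libraries were Flcn/Tfe3 DKO replicate 2 at 18.1 CPM, where the other 9 DKO were at 4.57 to 8.82 CPM, and Flcn KO replicate 4 at 12.5 CPM, where the other 4 KO were at 3.68 to 5.78 CPM. Junb in these libraries was the lowest of its group, at 12.1 and 5.64 CPM. Flcn/Tfeb DKO replicate 4 ran against the relation, with Zfp36 at 11 CPM (the other 3 DKO were at 5.18 to 7.94 CPM) and Junb at 13.8 CPM, both the highest of the group. Control Flcn/Tfe3 replicate 1, with the highest Zfp36 of its group at 11.5 CPM, had Junb at 16.2 CPM, inside the range of the other controls.

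Ier2 was related to the library total over all libraries, though not within table B. No other gene of the 10 was past the adjusted threshold. The total is of reads assigned to genes, not of reads sequenced. In the 26 libraries with a tally, 33.7% to 49.4% of reads were not uniquely aligned and 7.92% to 19.9% lay on no gene. The part of these shares in the relation was not tested. With group and table means removed, log2 CPM of Ier2 and log2 library total had r = 0.79 (permutation p = 1e-05, the smallest that the permutations can give, adjusted p = 0.0002 over 20 relations) and rho = 0.70 (permutation p = 0.00024). An r at least as far from 0 was found for 0.0364% of the 13728 genes tested, Ier2 included. It was 0.85 in table A and 0.91 in table C but -0.02 in table B, where totals ran from 3122979 to 4239356 counts. Without the library of its lowest total, Flcn/Tfe3 DKO replicate 2, table B gave -0.50, so the relation rests on tables A and C. Table C gave 0.45 without the library of its lowest total, control Flcn/Tfe3 replicate 5. Leaving out the 2 libraries with totals farthest from the median gave 0.72, and library totals in place of TMM-scaled sizes gave 0.81. Ier2 also had r = -0.66 (rho = -0.54, permutation p = 0.00058 and 0.00631, adjusted p = 0.0058) with the mitochondrial share, and -0.67, -0.43 and -0.73 within tables A, B and C. An r with the mitochondrial share at least as far from 0 was found for 7.53% of the 13728 genes tested. Total and mitochondrial share were themselves related at r = -0.70, so the share of each in the Ier2 value was not separated. CPM already divides by the scaled library total, so a gene in fixed proportion to the total would give no slope.

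**Figure D4:**
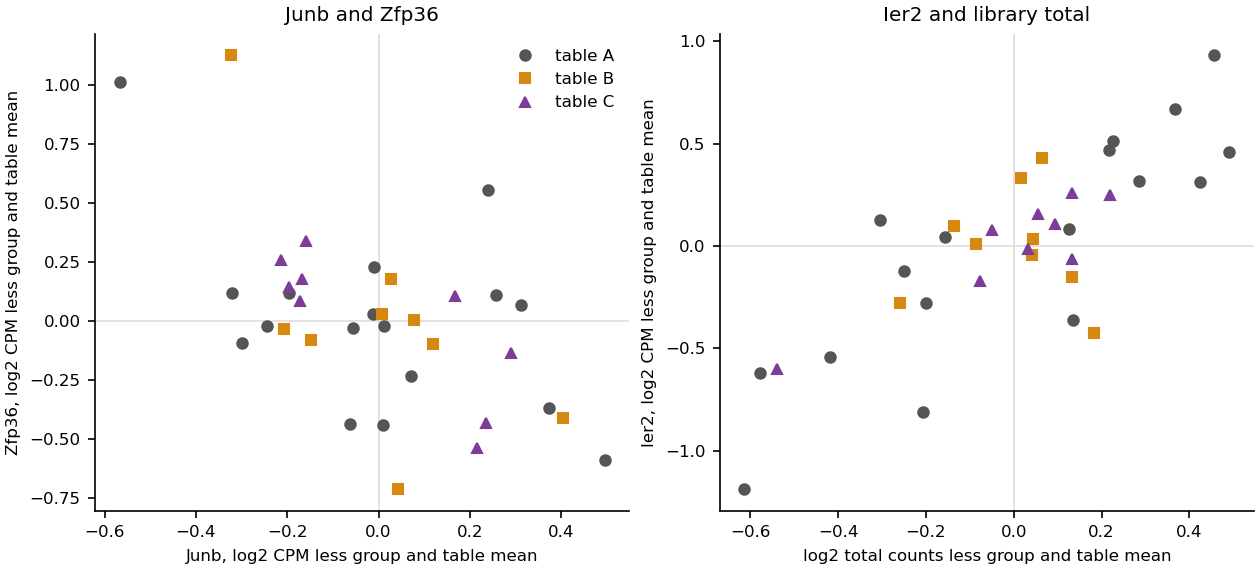
Left, Zfp36 against Junb, and right, Ier2 against library total, each point a library and each axis a log2 value less the mean of its group and table; circles are table A, squares table B and triangles table C. Points fall from upper left to lower right on the left (r = -0.57) and rise on the right (r = 0.79), but not among the squares of table B on the right.

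Ier2, at chr8:84661331-84662852, also differed in level between the tables. It stood at 5.84 to 12.4 CPM in Flcn controls and 4.09 to 15.2 CPM in Flcn/Tfeb controls of table A, at 17 to 17.9 CPM in controls of table B and at 16 to 29.6 CPM in controls of table C. No control of table A reached the lowest control of tables B and C. The share of all genes apart in this way was not counted. Controls of table B, but not all of table C, also lay above every control of table A for Junb and Zfp36. Junb was at 14.3 to 17.3 CPM in table B controls against 11.4 at most in table A, and Zfp36 at 9.34 to 11.5 CPM against 6.61 at most. Cross and table cannot be told apart here, and table B and C libraries had lower mitochondrial shares (1.79% to 7.80%) than most of table A (4.47% to 11.9%). Some marker sums differed as well. Distal tubule markers summed to 90.6 to 181 CPM in Flcn controls, 155 to 217 in Flcn/Tfeb controls and 40.3 to 73.7 in Flcn/Tfe3 controls. For nephron progenitor markers the sums were 7.27 to 20.5, 2.92 to 23.6 and 18.1 to 88.3 CPM in the same order. Their part in the Ier2 level was not tested. Summed markers of 14 cell types, the heat shock genes and the further immediate early genes were set against each of the 10 genes, 160 relations in all, and 0 passed an adjusted p under 0.05 (18 had an unadjusted permutation p under 0.05). The share of all genes with such a p was not counted. The smallest was Ier2 with myeloid markers, r = -0.52 (rho = -0.57, permutation p = 0.00152 and 0.00185, adjusted p = 0.175), with -0.57, -0.57 and -0.53 within tables A, B and C and -0.59 without the 2 farthest libraries. Further immediate early genes, summed, had r = 0.58 with Ier2 (rho = 0.59, permutation p = 0.00219 and 0.0036, adjusted p = 0.175, and 0.45 without the 2 farthest libraries). Within tables A, B and C that r was 0.61, -0.0088 and 0.82, so the relation was absent in table B. With Egr1 they had r = 0.49 (rho = 0.46, permutation p = 0.00499 and 0.0142, adjusted p = 0.216, and 0.48 without the 2 farthest libraries), and 0.39, 0.74 and 0.64 within tables.

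Genes most like the 10 as a set were ranked by their median r with them in the 17 libraries of table A. Ehmt2 led at 0.43, followed by Wdr46, Qk, Ntm, Prr15, Kpnb1, Sephs1, Iqgap3, Slc38a10 and Slc6a6, down to 0.41. In the 18 libraries of tables B and C the same measure ran from -0.19 to 0.26 over these 10 genes, 4 of them below 0, with 0.15 for Ehmt2. No gene of the immediate early class was among them.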

How the data were processed

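QuantSeq 3′ libraries of 35 mouse kidneys were analysed. The authors aligned trimmed reads on mm10 with STAR and made counts per gene with HTSeq-count (the submitters' processing notes name Trim Galore and STAR). The deposited values are whole-number counts, not normalized; rows of unassigned reads were left out. A deposited percent column of multi-mapped reads in 1 table was not used. No pair of libraries within a group and table matched within sampling noise (63 pairs, chi-square per degree of freedom 2.85 to 42.6).

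Genes passing filterByExpr were fitted with edgeR 4.0.16 (R 4.3.3; TMM, quasi-likelihood F test, two-sided, Benjamini-Hochberg over all genes tested, adjusted p under 0.05), with the table as a term for the Flcn/Tfe3 cross. DESeq2 1.42.0 was an alternative. Intervals are at 95% by the normal distribution from the estimate and its standard error, so they are narrower than the quasi-likelihood test would give. Covariation used log2 CPM with a prior count of 2, less the mean of each group and table, over 13728 genes. Alternatives were scaling, filter, threshold, replicate block, mitochondrial share, single tables, prior count 0.5 and leaving out each library. The fits were tested on simulated data. Depth limits low genes: 3 counts was taken as the floor, and floors cover counting error only. Labels do not say whether libraries came from separate litters, so p-values measure the spread between these libraries. The named genes are the 10 genes, Flcn, Tfeb and Tfe3, listed genes that were called, and the 10 genes most like them; others were named after their values were seen. The genes and lists were chosen with earlier results of these data known. Relations to library total, mitochondrial share, markers and overlapping genes were added after seeing the data. Gene positions are from GENCODE M21 and promoters from RefSeq, both GRCm38.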

Additional observations from a re-analysis of the deposited data

Results flagged for a closer look

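A library stood apart from its group, by Dixon's ratio of the gap to the range, in 6 of 49 gene and group combinations. Among independent, normally spread values about 1 in 20, or 2.45, would be flagged. Counts near the floor are not such values, and the Flcn/Tfe3 groups join tables B and C. The 2.45 is therefore no measure of chance here. Control Flcn/Tfe3 replicate 1 did so for a pair of genes: Fos was at 11.2 CPM (others 0.533 to 2.19) and Fosb at 1.67 CPM (others 0 to 0.353). Flcn/Tfe3 DKO replicate 2 did so for Zfp36 at 18.1 CPM (others 4.57 to 8.82) and Ier3 at 55.2 CPM (others 29.6 to 41.5), and it had the highest thick limb marker sum of the 10 DKO at 1190 CPM. Flcn KO replicate 4 did so for Zfp36 at 12.5 CPM, on 20 counts (others 3.68 to 5.78). Control Flcn replicate 2 was set apart for Fosb at 0.455 CPM by 1 count, the other 4 controls being at 0. The causes were not tested.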

How the results depend on the processing

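No count of called genes depended on the processing: 0 of the 10 genes was called in any of the 3 crosses or the 3 differences between them under DESeq2, RLE factors, no filter on low counts, an adjusted p under 0.1, the mitochondrial share as a term, table B or C alone, or without each library in turn. The replicate block gave 0 as well. Numbers did not pair the libraries (r of same-numbered libraries -0.318 to 0.311, best with its own number for 3 of 15). The block took the calls over all genes from 62 to 48 in the Flcn cross and from 48 to 12 in the Flcn/Tfe3 cross, where DESeq2 called 113 and 96, the mitochondrial term 147 and 28, no filter 95 and 61, an adjusted p under 0.1 100 and 69, and, in the Flcn/Tfe3 cross, tables B and C alone 8 and 569. Calls over all genes for the 3 differences, in the order of the report, were 2, 0 and 3, and became 8, 1 and 7 with DESeq2, 5, 0 and 0 with the mitochondrial term, 0 in each with the block, and, for the differences that hold the Flcn/Tfe3 cross, 459 and 1 with table C alone. The median r of 0.105 went to 0.237 on library totals and lay between 0.0653 and 0.137 without each library. The median SD of 0.403 was 0.311 in table B and 0.33 in table C. Log2 fold changes that turned direction were all uncalled. They were Jun 0.11 (Flcn/Tfeb, replicate block), Ier2 0.968 (Flcn/Tfeb, mitochondrial term) and, in the Flcn/Tfe3 cross, Egr1 0.00981 (no filter) and 0.404 (table C), Zfp36 -0.0326 (mitochondrial term) and -0.22 (table B), and Junb -0.0361 (table B). Without each library in turn, the Flcn cross gave Junb -0.186 to 0.051, Egr1 -0.105 to 0.199, Zfp36 -0.183 (without Flcn KO replicate 4) to 0.274 and Dusp1 -0.179 to 0.0144. The Flcn/Tfeb cross gave Jun -0.164 to 0.123, Egr1 -0.131 to 0.133, Ier2 -0.353 to 0.699 and Ier3 -0.244 to 0.00766. The Flcn/Tfe3 cross gave Egr1 -0.114 to 0.128 and Zfp36 -0.131 to 0.115. The causes were not tested. Many other uncalled values near 0 moved by over 1.5 times with no turn of direction. Depth limits Fos and Fosb, which passed the count filter in no cross, and Atf3, which passed it in 1.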
